A study of Homo sapiens with 6 samples.

Results

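A set of 9 cell-surface proteins used to recognise mesenchymal stem cells was followed at the RNA level in A673, a human Ewing sarcoma cell line with an EWS-FLI1 fusion gene, after siRNA against FLI1. The 9 genes, CD44, NT5E, THY1, ENG, VCAM1, MCAM, ALCAM, PDGFRB and FAP, were taken by symbol from the 27234 rows of the deposited exon count table, and each matched 1 row. The siFLI1 group (labelled si-FL1, 3 libraries) received the siRNA-FLI1 oligonucleotide and the siControl group (labelled si-con, 3 libraries) a scrambled siRNA, and RNA was taken 48 h later from cells grown in serum-containing DME medium. Both groups are the same line with the same fusion, so the data come from 1 tumour cell line and not from stem cells. Values are 3' RNA-seq counts, given below as CPM. This is the count of a gene relative to the library's total over the genes kept for testing. That total was scaled by the trimmed mean of M values (TMM). Values of single libraries are in the order of replicates 1, 2 and 3 throughout.

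Mesenchymal stem cells are adherent stromal cells that can form bone, cartilage and fat, and Ewing sarcoma has often been proposed to arise from cells of this kind. By the usual definition they carry NT5E (CD73), THY1 (CD90) and ENG (CD105) on the surface and lack blood cell markers, while CD44, VCAM1, MCAM, ALCAM, PDGFRB and FAP are further proteins found on stem cells of bone marrow, on pericytes or on activated fibroblasts. EWS-FLI1 joins part of EWSR1 to the DNA-binding domain of the ETS factor FLI1, which recognises the core GGAA, and the fusion both activates and represses genes.

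Promoter windows from 250 bases before to 50 after the RefSeq start were found for 7 of the 9 genes (RefSeq, GRCh38.p14, the assembly that hg38 names); THY1 and FAP were not matched. Below are those of the 3 genes that rose and of MCAM, a tested gene that did not pass the threshold, shown so that genes with different responses can be compared. Capitals mark GGAA, or TTCC, its complement on the other strand.

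CD44, chr11:35138921-35139220, plus strand: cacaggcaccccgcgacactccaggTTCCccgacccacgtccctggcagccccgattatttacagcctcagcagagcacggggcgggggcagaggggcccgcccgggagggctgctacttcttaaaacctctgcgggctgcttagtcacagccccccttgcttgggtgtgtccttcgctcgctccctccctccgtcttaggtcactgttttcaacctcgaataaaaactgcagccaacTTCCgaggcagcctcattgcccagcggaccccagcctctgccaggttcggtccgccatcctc

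NT5E, chr6:85449833-85450132, plus strand: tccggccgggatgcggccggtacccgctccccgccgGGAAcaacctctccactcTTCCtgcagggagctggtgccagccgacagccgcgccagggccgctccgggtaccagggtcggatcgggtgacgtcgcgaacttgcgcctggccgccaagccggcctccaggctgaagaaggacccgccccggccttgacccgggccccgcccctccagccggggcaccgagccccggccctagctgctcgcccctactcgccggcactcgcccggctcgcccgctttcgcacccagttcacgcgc

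VCAM1, chr1:100719492-100719791, plus strand: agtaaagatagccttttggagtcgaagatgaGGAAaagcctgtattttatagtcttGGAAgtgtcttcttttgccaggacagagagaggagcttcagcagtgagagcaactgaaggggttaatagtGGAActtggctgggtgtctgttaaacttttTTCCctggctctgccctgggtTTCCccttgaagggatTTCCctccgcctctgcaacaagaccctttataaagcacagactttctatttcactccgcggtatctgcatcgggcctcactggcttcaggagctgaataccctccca

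MCAM, chr11:119317081-119317380, minus strand: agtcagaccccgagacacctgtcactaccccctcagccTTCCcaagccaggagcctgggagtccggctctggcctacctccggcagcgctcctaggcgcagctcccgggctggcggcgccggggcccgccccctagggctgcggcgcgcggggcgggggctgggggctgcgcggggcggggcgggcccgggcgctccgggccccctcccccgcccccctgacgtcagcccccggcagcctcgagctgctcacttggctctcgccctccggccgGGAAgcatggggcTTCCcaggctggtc

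The core GGAA was present on either strand 2 times in the windows of CD44 and NT5E, 6 times in that of VCAM1 and 3 times in that of MCAM. All 7 matched windows held it, as did 95.5% of the 35116 windows of all genes, where the median was 3 matches. The repeat GGAAGGAA, which overlaps the core, had 0 matches in the 7 windows and was present in 3.67% of all windows. The AP-1 motif TGACTCA, the TEAD motif GGAATG, which overlaps the core, and the glucocorticoid receptor motif AGAACA also had 0 matches in the 7 windows, against 4.95%, 14% and 14.8% of all windows, both strands searched. The RefSeq start lay 301 bases downstream of the start of the deposited row for CD44, 499 for NT5E and 102 for VCAM1, and 0 bases from it for MCAM. Both starts are annotations, and the windows describe the RefSeq start. The start used in these cells was not measured.

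Sums of counts ran from 417145 to 1893606 in siFLI1 and from 1248395 to 1790051 in siControl. The lowest sum was that of siFLI1 replicate 3, which lay far from the rest by principal component analysis. Its counts made up 10.1% of its header total, against 41.2% in siControl replicate 3 and 55.4% to 61.0% elsewhere. Despite its depth it had counts in 14606 genes, within the 14024 to 14678 of the other libraries. The plot of fold changes shows each tested marker also without siFLI1 replicate 3 and siControl replicate 1. The latter had a TMM scaling factor of 1.23, against 0.936 to 0.987 in the other libraries. It also held the highest level of CD44, THY1, VCAM1, MCAM and PDGFRB among the siControl libraries. Leaving it out is therefore not independent of the marker values. For the markers, the text gives values of this fit where they change a call, a direction or a size. FLI1, the siRNA target, was at 19.0, 42.5 and 24.1 CPM in siFLI1 and at 63.0, 69.1 and 62.4 CPM in siControl, without overlap. The log2 difference of -1.16 ± 0.36 (SE) missed the threshold (edgeR adjusted p = 0.17). Of 9420 genes tested, 126 passed as higher in siFLI1, a background share of 1.34%, and 11 as lower, 0.117%, together 1.45% (edgeR's quasi-likelihood test, p adjusted by Benjamini-Hochberg and under 0.05).

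Of the marker genes, 3 rose on targeting FLI1: CD44, a receptor for the matrix sugar hyaluronan, NT5E, the ectoenzyme that makes adenosine from AMP, and VCAM1, an adhesion molecule bound by integrin alpha-4. Each was about 4-fold higher in siFLI1. ALCAM, PDGFRB and FAP had higher values in each siFLI1 library than in each siControl library but missed the threshold, MCAM and THY1 overlapped between the groups, and ENG was near the detection limit in both. Of the 8 markers tested, 3 passed as higher and 0 as lower, read against 1.34% and 0.117% of all genes, and at an unadjusted p below 0.05 there were 6 higher and 0 lower, against 6.62% and 4.13%. The log2 fold change was above 0 for 7 of the 8, against 50.4% of all genes, and above 1 for 5, against 6.89%. DESeq2 called 4 higher and 0 lower, and limma-voom 3 and 0. FAP entered the test only through the siFLI1 group, and the members were chosen with results of these data known, so these counts describe the members and support nothing beyond them.

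**Figure D1:**
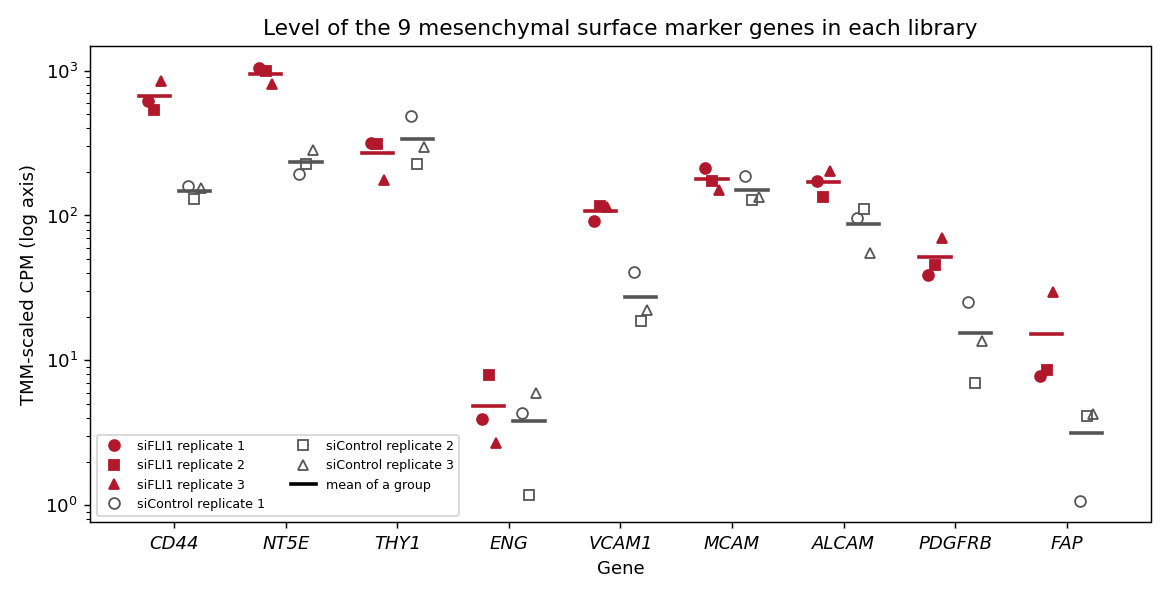
Level of the 9 marker genes by library, as TMM-scaled CPM (log axis), with siFLI1 in filled red symbols to the left and siControl in open grey symbols to the right of each gene; symbol shapes give the replicate and bars the mean of 3 libraries. The siFLI1 libraries lie above the siControl libraries for CD44 (536 to 843 against 130 to 160 CPM), NT5E, VCAM1, ALCAM, PDGFRB and FAP, and overlap with them for THY1, ENG and MCAM.

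Among the markers of the usual definition, NT5E (row NM_002526, chromosome 6, 85449584 to 85495791, plus strand, hg38) had 1876, 1500 and 301 counts in the siFLI1 libraries, or 1049, 996 and 806 CPM. The siControl libraries had 360, 388 and 332 counts, or 194, 227 and 284 CPM. The lowest siFLI1 library was thus well above the highest siControl library, and the spread within a group was small beside the gap. The means were 950.4 ± 128 CPM in siFLI1 and 235 ± 45.4 CPM in siControl (SD, n = 3 each), a 4.05-fold difference (95% interval 2.68 to 6.12). On the log2 scale this was 2.02 ± 0.28 (SE), with an edgeR adjusted p of 0.000921. The call held when any 1 of the 6 libraries was left out, where the log2 fold change ran from 1.86 to 2.17 and the highest adjusted p was 0.024.

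THY1, a small glycolipid-anchored protein of the immunoglobulin superfamily (row NM_001311160, chromosome 11, 119417941 to 119422562, minus strand), gave a different picture. Its level was 319, 311 and 177 CPM in the siFLI1 libraries, against 484, 225 and 295 CPM in the siControl libraries. The groups overlapped: the highest value was siControl replicate 1 and the lowest siFLI1 replicate 3. On the log2 scale siFLI1 differed by -0.30 ± 0.32 (SE; 95% interval -0.99 to 0.39; edgeR adjusted p = 0.82), and its sign turned to 0.03 without siControl replicate 1 and to 0.27 without both that library and siFLI1 replicate 3. The whole interval of THY1 lay below that of NT5E, 1.42 to 2.61.

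ENG, a coreceptor for TGF-beta family ligands (row NM_000118, chromosome 9, 127815012 to 127854773, minus strand), had 7, 12 and 1 counts in siFLI1 replicates 1, 2 and 3 and 8, 2 and 7 counts in siControl replicates 1, 2 and 3. These counts were too low for the filter, so ENG had no test in the fit over all genes. Pooled over libraries, 20 counts in siFLI1 against 17 in siControl gave a ratio of 1.52 (exact 95% interval 0.756 to 3.09, counting error only), so a difference of this size was not detectable at this depth. With no low-count filter edgeR estimated 0.41 ± 1.05 on the log2 scale (SE; adjusted p = 0.917). Of the 3 proteins of the usual definition, the transcript of 1 therefore passed the threshold.

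CD44 (row NM_000610, chromosome 11, 35138870 to 35232402, plus strand) links hyaluronan in the matrix to the actin cytoskeleton through ezrin, radixin and moesin. The siFLI1 libraries held 1100, 807 and 315 counts of it, or 615, 536 and 843 CPM. The siControl libraries held 297, 222 and 181 counts, or 160, 130 and 155 CPM. Every siFLI1 library was more than 3 times the highest siControl library. The log2 fold change of 2.16 ± 0.28 (SE; 95% interval 1.57 to 2.75; edgeR adjusted p = 0.000492) was the largest of the 8 tested markers, a 4.47-fold difference. Intervals of CD44, NT5E, VCAM1, PDGFRB and FAP overlapped widely, so their order by fold change is not separated by these data. Without siFLI1 replicate 3, the highest library, the value was 1.96 and still passed (adjusted p = 0.000774). Splice forms of CD44 cannot be told apart in 3' counts over 1 row for the gene.

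Of the immunoglobulin-type adhesion molecules, VCAM1 (row NM_001199834, chromosome 1, 100719640 to 100739046, plus strand) had 165, 176 and 43 counts with siFLI1, or 92.3, 117 and 115 CPM. With siControl it had 76, 32 and 26 counts, or 40.9, 18.7 and 22.2 CPM. The groups did not overlap, and siControl replicate 1 lay apart from the other siControl libraries. VCAM1 thus rose 3.90-fold, or by 1.96 ± 0.34 on the log2 scale (SE; 95% interval 1.24 to 2.69; edgeR adjusted p = 0.00678). The call was lost without siFLI1 replicate 2 (1.90, adjusted p = 0.0525), siControl replicate 2 (1.75, adjusted p = 0.0689) or siControl replicate 3 (1.84, adjusted p = 0.0566), and the fit without siFLI1 replicate 3 and siControl replicate 1 gave 2.35 (adjusted p = 0.00135).

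ALCAM, which binds itself and CD6 (row NM_001243280, chromosome 3, 105366713 to 105576913, plus strand), was at 173, 134 and 203 CPM in siFLI1 and at 96.4, 110 and 54.7 CPM in siControl, in replicate order. The lowest siFLI1 value was close to the highest siControl value, without overlap. The estimate of 0.94 ± 0.30 on the log2 scale (SE; 95% interval 0.29 to 1.59) missed the threshold over all genes (edgeR adjusted p = 0.201), and was 0.87 without siFLI1 replicate 3 and siControl replicate 1. MCAM, an endothelial and pericyte adhesion molecule that binds laminin alpha-4 (row NM_006500, chromosome 11, 119308524 to 119317130, minus strand), was at 214, 173 and 150 CPM in siFLI1 and at 186, 129 and 135 CPM in siControl. The groups overlapped, and the log2 estimate was 0.26 ± 0.26 (SE; 95% interval -0.30 to 0.82; edgeR adjusted p = 0.803), or 0.54 without siFLI1 replicate 3 and siControl replicate 1. In the fit on all 6 libraries, the 95% interval of MCAM reached up to a 1.77-fold rise and lay below those of CD44, NT5E and VCAM1. MCAM and THY1 are neighbours on chromosome 11, 100.8 kb apart with 4 other rows of the table between them. Both missed the threshold, which only 1.45% of all tested genes passed.

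The growth factor receptor PDGFRB, a tyrosine kinase of pericytes and fibroblasts (row NM_002609, chromosome 5, 150113839 to 150155859, minus strand), was represented by 70, 68 and 26 counts in the siFLI1 libraries, or 39.1, 45.2 and 69.6 CPM. In the siControl libraries there were 47, 12 and 16 counts, or 25.3, 7.03 and 13.7 CPM. Each siFLI1 library was above each siControl library, and both groups were spread widely. The log2 fold change of 1.68 ± 0.47 (SE; 95% interval 0.68 to 2.67) missed the threshold (edgeR adjusted p = 0.117). It passed in DESeq2 (adjusted p = 0.0379), with no low-count filter (0.0121), in limma-voom with library weights (0.0359) and without siFLI1 replicate 3 and siControl replicate 1 (2.05, adjusted p = 0.0346). The last of these fits leaves out the highest PDGFRB value of each group, 69.6 and 25.3 CPM.

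FAP, a membrane-bound prolyl peptidase of activated fibroblasts (row NM_004460, chromosome 2, 162170684 to 162243557, minus strand), had 14, 13 and 11 counts in siFLI1 replicates 1, 2 and 3 and 2, 7 and 5 counts in siControl replicates 1, 2 and 3. As CPM these were 7.83, 8.64 and 29.5 in siFLI1 and 1.08, 4.10 and 4.27 in siControl. One library, siFLI1 replicate 3, lay far above the others of its group. The log2 fold change of 2.09 ± 0.77 (SE; 95% interval 0.44 to 3.74) missed the threshold (edgeR adjusted p = 0.299), and it was 1.41 without siFLI1 replicate 3 and 0.95 without both libraries. Its counts were too few for a firmer statement. Rows of LOC101929532 on the other strand of FAP, LOC102723566 on that of ENG and USP2-AS1 on that of THY1 overlapped these genes and held 2, 4 and 1 counts over all 6 libraries.

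**Figure D2:**
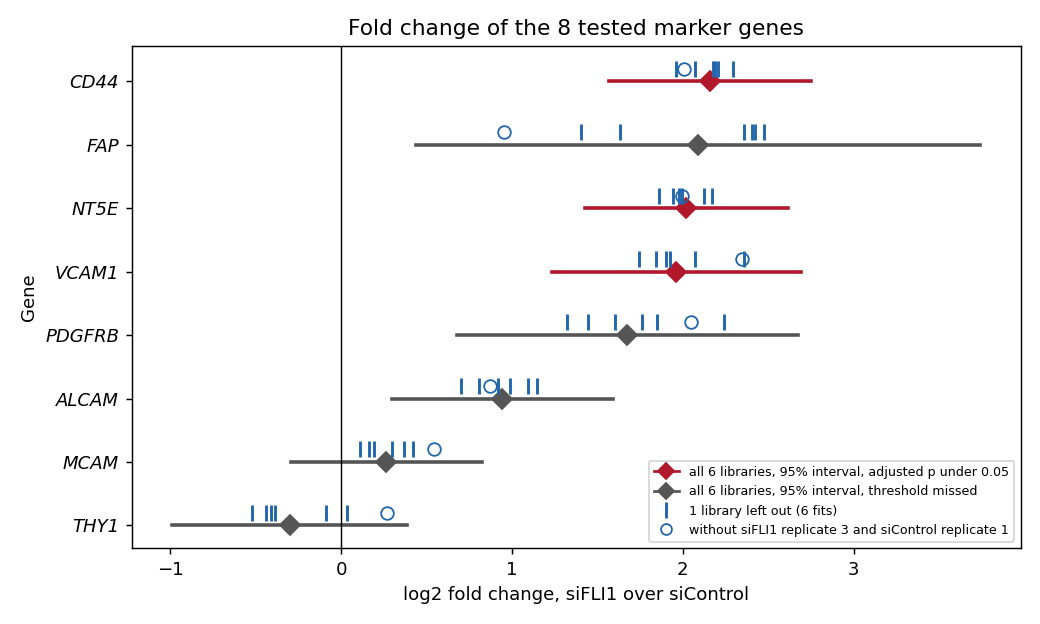
Log2 fold change of siFLI1 over siControl for the 8 tested markers, with diamonds for the fit on all 6 libraries and bars for its 95% interval; red marks genes past an adjusted p of 0.05, blue ticks the 6 fits without 1 library and open circles the fit without siFLI1 replicate 3 and siControl replicate 1. CD44 and NT5E keep narrow ranges (1.96 to 2.29 and 1.86 to 2.17 over fits without 1 library), FAP spreads from 1.41 to 2.48, and THY1 lies on both sides of 0.

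A permutation of the library labels cannot go below p = 0.1 with 3 against 3 libraries. The 6 markers without overlap each gave this smallest exact two-sided value, 0.15 after Benjamini-Hochberg adjustment over the 9 genes, while MCAM gave 0.3, THY1 0.6 and ENG 0.7. Among all tested genes, 8.93% had groups apart with siFLI1 higher and 7.71% with siFLI1 lower, and 0 of the 9 markers had the second form. Ranked by log2 fold change among all tested genes, CD44 stood at the percentile 98.9, FAP at 98.7, NT5E and VCAM1 at 98.5 and PDGFRB at 97.8. ALCAM stood at 92.2, MCAM at 68.9 and THY1 at 26.7. FAP missed the threshold and entered the test only through siFLI1, and its value was 0.95 without siFLI1 replicate 3 and siControl replicate 1. The members were chosen with results of these data known, so the ranks only describe them.

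Because a fold change depends on how libraries are scaled, counts of each marker were also divided by those of THY1 in the same library, a measure that needs no scaling and was chosen after the values were seen. For CD44 the ratio was 1.93, 1.72 and 4.77 in siFLI1 replicates 1, 2 and 3 and 0.330, 0.577 and 0.525 in siControl replicates 1, 2 and 3. For NT5E it was 3.29, 3.21 and 4.56 in siFLI1 and 0.400, 1.01 and 0.962 in siControl. For VCAM1 it was 0.289, 0.376 and 0.652 in siFLI1 and 0.0845, 0.0831 and 0.0754 in siControl, where the 3 control libraries were nearly equal. The groups did not overlap for these 3 genes, PDGFRB and FAP (exact permutation p = 0.1 each, 0.16 adjusted over 8 ratios), and overlapped for MCAM, ALCAM and ENG. THY1 had the lowest log2 fold change of the 8 tested markers, and the ratios reuse the counts of the main test. They therefore describe the same differences without scaling and give no further support. Nor do they show that THY1 itself was constant.

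**Figure D3:**
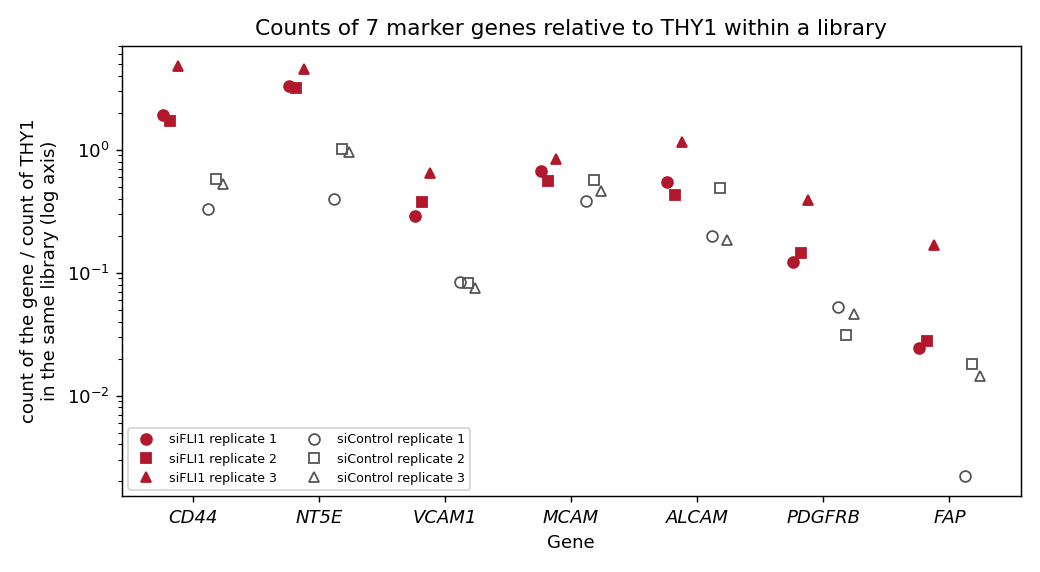
Count of 7 markers divided by the count of THY1 in the same library, on a log axis, with siFLI1 in filled red symbols to the left and siControl in open grey symbols to the right. The 3 siFLI1 libraries lie above the 3 siControl libraries for CD44, NT5E, VCAM1, PDGFRB and FAP, and siFLI1 replicate 3 has the highest ratio for each gene. The divisor THY1 had its lowest level in that library (177 CPM), where NT5E and MCAM also had their lowest siFLI1 levels.

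Other surface proteins described on mesenchymal stem or stromal cells were mixed. Of 31 listed genes, 21 were tested, and 3 passed as higher and 0 as lower, and the median on the log2 scale was 0.42, against 0.01 over all tested genes (at an unadjusted p below 0.05, 6 and 1; DESeq2 called 4 higher and 0 lower, limma-voom 3 and 0). BST1 (CD157), an ADP-ribosyl cyclase of bone marrow stroma, averaged 58.3 ± 6.43 CPM with siFLI1 and 7.18 ± 1.62 CPM with siControl (SD, n = 3 each). Its log2 estimate, 3.04 ± 0.39 (SE; edgeR adjusted p = 0.000521), was above that of each of the 8 tested markers, and its interval overlapped that of CD44. The adhesion molecule L1CAM rose by 1.94 ± 0.34 on the log2 scale (adjusted p = 0.00735), a call lost in 3 of the fits without 1 library. Tissue factor F3, which starts coagulation, rose by 2.31 ± 0.52 (adjusted p = 0.0474), a call lost in 8 of 16 alternative fits: 5 of the 6 without 1 library (held without siFLI1 replicate 3), total count scaling (adjusted p = 0.073), upper quartile scaling (0.0542) and a filter of 5 CPM (0.0647). It passed the low-count filter only through siFLI1. The tetraspanin CD9 was at 1.44 ± 0.39 (adjusted p = 0.0981). It was called in 4 of 16 alternative fits, among them that without siFLI1 replicate 3 (1.64, adjusted p = 0.0413) and that also without siControl replicate 1 (1.96, adjusted p = 0.0133).

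The molecules that work with the markers were listed by marker. Around CD44, 9 of 20 genes for hyaluronan metabolism and cytoskeletal linkage were tested, with 1 higher and 0 lower and a median of -0.18. The 1 that rose was SRGN, the proteoglycan serglycin and a CD44 ligand, averaging 61.5 ± 18.6 CPM with siFLI1 and 12.04 ± 0.23 CPM with siControl (SD, n = 3 each), or 2.31 ± 0.38 on the log2 scale (edgeR adjusted p = 0.00459). Values of the linkers MSN (moesin), -0.53 ± 0.40, and EZR (ezrin), -0.35 ± 0.31, and of the hyaluronan receptor HMMR, -0.95 ± 0.47, missed the threshold.

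Around NT5E, 8 of 20 genes of ATP breakdown, adenosine receptors and adenosine removal were tested, and 0 passed in edgeR, DESeq2 or limma-voom (at an unadjusted p below 0.05, edgeR gave 1 higher and 0 lower). As edgeR called 1.45% of all tested genes, 0 of 8 is no result about the pathway. The adenosine receptor gene ADORA2A averaged 39.1 ± 11.4 CPM with siFLI1 and 14.7 ± 12.5 CPM with siControl (log2 fold change 1.38 ± 0.53, edgeR adjusted p = 0.334). It was at 2.35 without siControl replicate 1 (adjusted p = 0.0517) and at 2.40 without that library and siFLI1 replicate 3, where edgeR called it (adjusted p = 0.0224). Purine nucleoside phosphorylase PNP was at -0.51 ± 0.28 on the log2 scale, adenosine kinase ADK at 0.43 ± 0.30 and the ATP-splitting ENPP1 at 0.26 ± 0.26. ENTPD1, the enzyme that makes the AMP used by NT5E on many cells, had 0, 0 and 7 counts in the siFLI1 libraries and 0, 0 and 2 in the siControl libraries; it is named after its values were seen.

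Receptors, ligands and SMADs that act with ENG numbered 13 tested of 20, with 2 higher and 0 lower and a median of 0.45. The type II receptor TGFBR2 averaged 132 ± 44.3 CPM with siFLI1 and 49.5 ± 5.33 CPM with siControl (log2 fold change 1.37 ± 0.30, edgeR adjusted p = 0.0353), a call lost in 9 of 16 alternative fits, among them each of the 6 without 1 library (1.10 to 1.55), that without siFLI1 replicate 3 and siControl replicate 1 (1.11) and total count scaling. ID1, an inhibitor of bHLH factors and a BMP target, rose by 1.24 ± 0.27 (adjusted p = 0.033), a call lost in 7 of 16 alternative fits, among them 5 of the 6 without 1 library (held without siFLI1 replicate 3) and total count scaling. Of the PDGF family around PDGFRB, 5 of 8 genes were tested and 1 rose, PLAT, tissue plasminogen activator, which cleaves latent PDGFC, averaging 105 ± 35.2 CPM with siFLI1 and 18.7 ± 4.01 CPM with siControl (2.50 ± 0.34, adjusted p = 0.000921). The ligand gene PDGFC was at 1.17 ± 0.35 (adjusted p = 0.154) and LRP1, an endocytic receptor that interacts with PDGFRB, at 1.15 ± 0.42 (adjusted p = 0.298).

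Partners of the adhesion molecules gave 2 higher and 0 lower of 12 tested from 22 listed, with a median of 0.63. LAMA4, the laminin alpha-4 chain that MCAM binds, averaged 433 ± 24.1 CPM with siFLI1 and 11.01 ± 3.62 CPM with siControl (5.30 ± 0.33, edgeR adjusted p = 1.38e-06), beside the 0.26 of MCAM itself; the second was L1CAM. Galectin-3, LGALS3, was at 1.02 ± 0.25 (adjusted p = 0.0625) and integrin alpha-V, ITGAV, at 0.75 ± 0.26 (adjusted p = 0.251). LGALS3 was called in 4 of 16 alternative fits, among them DESeq2 (adjusted p = 0.0219) and that without siFLI1 replicate 3 and siControl replicate 1 (1.09, adjusted p = 0.0161). ICAM1, a cytokine-induced adhesion molecule like VCAM1 and named after its values were seen, averaged 590 CPM with siFLI1 and 611 CPM with siControl (-0.05 ± 0.31 on the log2 scale). Among prolyl peptidases related to FAP, 0 of 7 tested were called by edgeR, DESeq2 or limma-voom (0 in edgeR at an unadjusted p below 0.05, median 0.01). Beside the 1.45% of all tested genes that edgeR called, this is no result about the family. PREPL was at 0.71 ± 0.48, PREP at 0.53 ± 0.47, DPP7 at -0.36 ± 0.52 and PRCP at -0.12 ± 0.28.

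**Figure D4:**
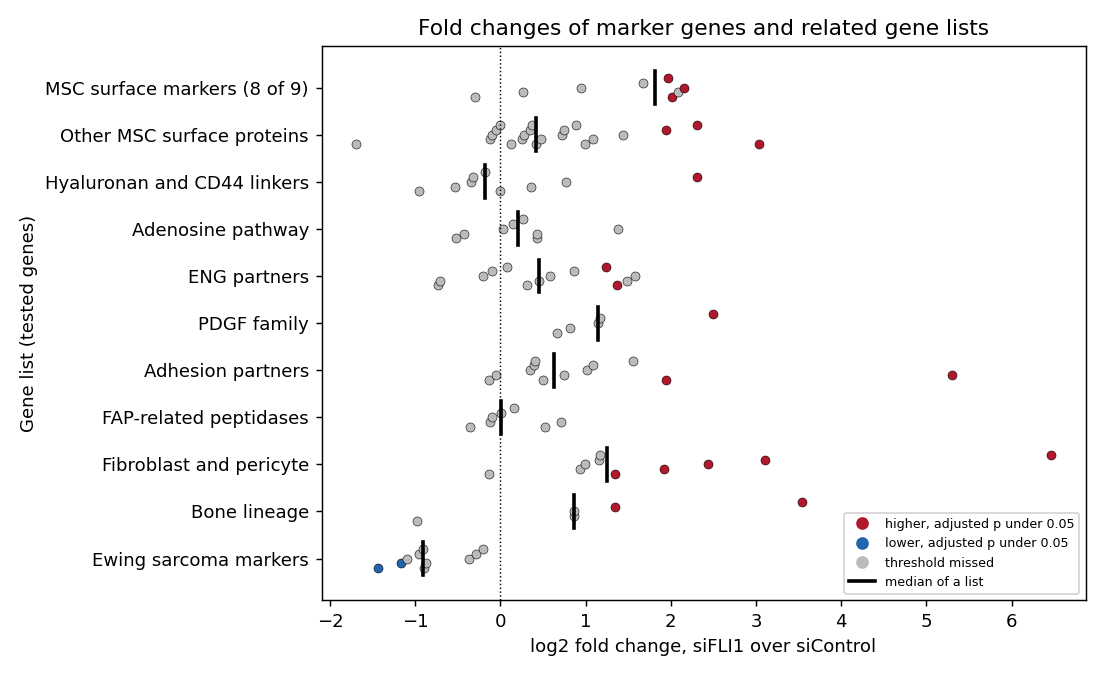
Log2 fold change of siFLI1 over siControl for the tested genes of 11 lists, 1 point for each gene, with red for genes higher and blue for genes lower at an adjusted p of 0.05 and black bars for the median of a list. The markers have a median of 1.82 over 8 tested genes, other stem cell surface proteins 0.42, fibroblast and pericyte genes 1.26 and Ewing sarcoma markers -0.91.

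The labelled cell type was checked against its markers. All 10 genes listed for Ewing sarcoma were tested, 0 were higher and 2 lower, NR0B1, an orphan nuclear receptor, at -1.43 ± 0.30 (edgeR adjusted p = 0.025) and PRKCB, a protein kinase C, at -1.17 ± 0.26 (adjusted p = 0.0369), and each of the 10 values was below 0. Both calls were lost in each of the 6 fits without 1 library, where NR0B1 ran from -1.58 to -1.20 and PRKCB from -1.31 to -1.10. They were also lost without siFLI1 replicate 3 and siControl replicate 1 (-1.01 for NR0B1 and -1.04 for PRKCB). The 10 genes summed to 2313 to 2542 CPM in siFLI1 and 3016 to 4017 CPM in siControl. Of the fibroblast and pericyte genes, of which 10 were tested from 20 listed, 5 were higher and 0 lower: COL6A3 (6.46 ± 0.45), COL3A1 (3.11 ± 0.28), the contractile ACTA2 (2.44 ± 0.26), COL1A2 (1.93 ± 0.27) and COL1A1 (1.34 ± 0.25), all collagen genes but ACTA2. COL6A3, with 3, 1 and 1 siControl counts, passed the low-count filter only through siFLI1. The COL1A1 call held in 2 of 6 fits with a library left out. The most abundant gene of the list, FN1 (fibronectin), averaged 1768 CPM in siFLI1 and 785 CPM in siControl (1.17 ± 0.30, edgeR adjusted p = 0.0805). It was called in 5 of 16 alternative fits, among them DESeq2 (adjusted p = 0.00377) and limma-voom (0.0377). DESeq2 and limma-voom each called 6 genes of this list higher and 0 lower. The list summed to 4174 to 4546 CPM in siFLI1 and 1415 to 1715 CPM in siControl. DPT, TCF21 and TWIST2 of that list had 0 counts in all libraries. Others of it, named after their values were seen, were near 0 or alike in both groups. DCN had 7, 2 and 0 counts in siFLI1 and 0, 1 and 1 in siControl, and LUM 1, 1 and 2 and 2, 0 and 0. TWIST1 averaged 90.0 CPM in siFLI1 and 97.5 CPM in siControl (-0.14 ± 0.27). In bulk RNA of 1 cell line, a change in the share of its cells that express a gene and a change in RNA per cell cannot be told apart. Stromal cells are not part of the design, and the cause of these changes was not tested.

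Genes that stem cells lack by the usual definition, listed together with blood cell markers, were mostly too low to be tested. Of 12 such genes, only CD68, a lysosomal protein, passed the filter, averaging 62.5 ± 23.1 CPM with siFLI1 and 49.2 ± 5.39 CPM with siControl (0.40 ± 0.32, edgeR adjusted p = 0.738; DESeq2 and limma-voom called 0), and the list summed to 79.4 to 96.4 CPM in siFLI1 and 53.9 to 69.2 CPM in siControl. CD3E and HLA-DRA had 0 counts in all 6 libraries. The HLA-DRA row lies on an alternate sequence of its chromosome, so its 0 counts do not show that the gene was silent. PTPRC (CD45) had 0, 0 and 16 counts in siFLI1 replicates 1, 2 and 3 and 0, 0 and 6 counts in siControl replicates 1, 2 and 3. The 16 counts were 42.8 CPM in that library of low depth. ITGAM had 15, 0 and 5 counts in siFLI1 and 1, 4 and 3 in siControl, averaging 7.26 CPM with siFLI1 and 1.82 CPM with siControl. None of 10 endothelial genes passed the filter, TEK was at 0 counts, and the most abundant, CLDN5, KDR and EMCN, were at 5.83, 3.62 and 4.20 CPM in siFLI1 and 7.16, 2.86 and 2.26 CPM in siControl. Of 10 epithelial genes, KRT14, KRT19 and KRT5 had 0 counts, CLDN4 averaged 3.78 CPM in siFLI1 and 0.18 CPM in siControl, and the tested KRT18 (0.28 ± 0.24) and KRT8 (0.15 ± 0.45) did not pass in edgeR, DESeq2 or limma-voom.

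Genes of the lineages that stem cells form were few above the filter. For bone, 5 of 10 were tested, with 2 higher and 0 lower: COL1A1, and RUNX2, the master factor of osteoblasts, at 18.5, 25.2 and 50.9 CPM in siFLI1 and 1.62, 0.59 and 5.98 CPM in siControl (3.54 ± 0.72, edgeR adjusted p = 0.0231). RUNX2 had siControl counts of 3, 1 and 7 and passed the low-count filter only through siFLI1. Its call was lost in 7 of 16 alternative fits, among them limma-voom (adjusted p = 0.0546) and 4 of the 6 fits with a library left out, and its value was 4.63 without siControl replicate 3. It was 2.84 with both siFLI1 replicate 3 and siControl replicate 1 left out. SPARC was at 0.87 ± 0.28 (adjusted p = 0.193), and the homeobox gene DLX5 at -0.98 ± 0.41 (adjusted p = 0.397). SPARC was called in 3 of 16 alternative fits, among them DESeq2 (adjusted p = 0.0389) and that without siFLI1 replicate 3 and siControl replicate 1 (1.02, adjusted p = 0.00643). For cartilage 2 of 9 were tested, SOX9 at 1.57 ± 0.54 and SOX6 at 1.76 ± 0.93, a value that rests on siFLI1 replicate 3, and for fat 1 of 10, CEBPB at -0.14 ± 0.26; 0 of these 3 passed in edgeR, DESeq2 or limma-voom.

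The genes with the most similar profile were sought among 8338 tested genes with a mean of at least 10 CPM, by the root mean square difference of centred log2(CPM + 1) over the 6 libraries. For CD44 the nearest was S100A10, an S100-family partner of annexin A2, with a difference of 0.20, and then ACSL5 (0.23). For NT5E the nearest were the collagen gene COL1A2 (0.13) and the lysyl oxidase LOXL2 (0.20), and for VCAM1 the RNA-binding ZFP36L1 (0.18) and LYPD1 (0.23). ALCAM lay nearest to MIR22HG (0.17) and CXCL8 (0.17), PDGFRB to APBB2 (0.24) and ANKRA2 (0.25), and FAP to TDO2 (0.24) and AACS (0.28). THY1 and MCAM had closer neighbours, BSG (0.09) and EMC6 (0.09) for THY1 and YIF1A (0.08) and RNF145 (0.08) for MCAM. This is a description of 6 libraries in 2 groups and has no test.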

How the data were processed

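RNA was measured by a bulk form of MARS-seq, a 3' method with molecular barcodes, per the labels' protocols. The authors deposited raw counts per RefSeq row over exons; per the submitters' processing notes the tools were bcl2fastq, HISAT 0.1.5 and HOMER and the build hg38, listed without roles. Barcode collapse and use of strand are not given in the sources used here: PCR copies and antisense reads may be among the counts. Columns matched sample titles, which also gave groups and replicate numbers.

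Genes were kept by edgeR's filterByExpr (minimum count 10, minimum total 15), which left 9420 of 27234 rows, scaled by TMM and tested in R 4.3.3 with edgeR 4.0.16 (robust glmQLFit, glmQLFTest, two-sided, group as the 1 term), with Benjamini-Hochberg adjustment over all tested genes and calls at adjusted p below 0.05. The F statistic gave each standard error and 95% interval. Intervals from counts are exact and cover counting error only. No label ties the libraries to separate cultures, so a p-value reflects only how these libraries vary, which may be technical. No 2 libraries of a group were duplicates (lowest chi-square, divided by its degrees of freedom, 6.78). Members and lists were chosen with earlier results of these data known.

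Genes are named as the members, FLI1, up to 4 genes per list, by smallest adjusted p, each gene past the threshold, up to 3 most abundant genes of other cell types' lists, and the 2 genes nearest in profile. Alternatives were DESeq2 size factors, total counts and upper quartile scaling, other low-count filters, DESeq2 1.42.0, limma-voom (limma 3.58.1) with and without library weights, a replicate block, leaving out libraries, a stricter threshold and glmTreat.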

Additional observations from a re-analysis of the deposited data

How the results depend on the processing

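CD44 and NT5E passed the threshold in all 16 alternative fits, with log2 fold changes from 1.96 to 2.29 and from 1.86 to 2.17, and VCAM1 in 13 of 16, from 1.75 to 2.36. From 2 to 4 markers were called higher and 0 lower in each setting, and those 3 genes were called under each scaling. PDGFRB was called in 4 of 16 fits, and ALCAM, FAP, MCAM and THY1 in 0. The log2 fold change of THY1 ran from -0.52 to 0.27; it was 0.03 without siControl replicate 1 and 0.27 when siFLI1 replicate 3 was left out too. PREP ran from -0.19 (without siFLI1 replicate 1) to 0.81, and KRT8 from -0.14 (without siControl replicate 2) to 0.44. DPP7 had a lowest value of -0.77 and turned to 0.0059, 0.04 and 0.42, and PRCP had a lowest value of -0.29 and turned to 0.018, 0.05 and 0.18, in limma-voom with library weights, without siControl replicate 1 and without both libraries. SOX6 had a highest value of 2.37 and turned to -0.14 in limma-voom, -0.20 with library weights, -0.63 without siFLI1 replicate 3 and -0.48 without both libraries. The cause of these turns was not tested.

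Over all genes, 126 were higher and 11 lower. Without 1 library the counts ran from 64 to 121 higher and from 1 to 7 lower, and without both libraries 161 and 32. No low-count filter gave 306 and 62 of 18819 genes tested, an adjusted p of 0.01 gave 71 and 1, and glmTreat against a 1.5-fold change 81 and 1. Genes called lower numbered 17 under total counts, 31 in DESeq2 and 28 in limma-voom with library weights. Total count scaling moved the median log2 fold change of all genes to -0.12.

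With the replicate block, 99 genes were higher and 2 lower, and the 3 called markers passed, while ID1 (adjusted p = 0.0942), TGFBR2 (0.0881) and PRKCB (0.094) lost their calls. Over all tested genes same-numbered libraries did not deviate together (r of deviations -0.02, -0.01 and -0.04), so the numbers were not taken to pair the samples. A few genes too low to be tested, named after their values were seen, were found mainly in replicate 3 of both groups: PTPRC, ENTPD1, PPARG (0, 0 and 6 counts in siFLI1, 0, 0 and 1 in siControl) and VCAN (0, 2 and 14 counts in siFLI1, 0, 0 and 6 in siControl). Replicate 3 also had the lowest share of its header total in each group, 10.1% in siFLI1 and 41.2% in siControl. Depth limits ENG and FAP most, with 17 and 14 counts over the 3 siControl libraries.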

Other observations

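A few surface and lineage genes had 1 library far above the rest, and they are named here after their values were seen. The nerve growth factor receptor NGFR, a surface marker of primitive bone marrow stromal cells, had 23, 23 and 3 counts in siFLI1 replicates 1, 2 and 3 and 181, 27 and 11 counts in siControl replicates 1, 2 and 3. PDGFRA, the other PDGF receptor, had 2, 1 and 0 counts in siFLI1 and 25, 0 and 1 in siControl, so that 25 of its counts came from siControl replicate 1. SOX6 had 17, 9 and 49 counts in siFLI1 and 27, 18 and 13 in siControl, with the highest count in the siFLI1 library of lowest depth.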
